A study of Spinacia oleracea with 12 samples.

Results

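Spo24676, Spo24677 and Spo16971 are the 3 spinach genes that were named as ammonium transporters induced in roots under limited N, among 25495 genes in the expression table. They were taken by identifier, and the values that put them on the list are the root values under low N and high N, so that contrast is described here without a test. The best protein match of all 3 is the tomato ammonium transporter AMT1-2, and 2 further genes with an ammonium transporter match, Spo21031 (tomato AMT1-3) and Spo20483 (rice AMT3-1), are set beside them. Names rest on these protein matches, and spinach sequences were not used here.

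Ammonium transporters are membrane proteins that carry ammonium into the cell. The AMT1 family is best known from Arabidopsis, tomato and rice, where several members work in high-affinity uptake at the root surface and are raised when N is short. Ammonium inside the cell is joined to glutamate by glutamine synthetase, and the glutamine formed feeds glutamate synthase. The N supplied in the experiment was nitrate.

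The groups were roots of plants kept at 50 ppm N (low N root), roots at 200 ppm N (high N root), leaves at 50 ppm N (low N leaf) and leaves at 200 ppm N (high N leaf), with 3 biological replicates each. All plants were of the variety 'Banjo', were 6 weeks old, grew in a Turface medium, and received N as calcium nitrate with calcium chloride to balance the calcium. RNA of 12 libraries was sequenced and is given as FPKM, fragments scaled to gene length and to the total of the library. This allows genes to be compared within a library, while comparisons between root and leaf also depend on how the libraries are scaled.

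The libraries held 15627994 to 18608172 fragments on genes, and the fragments behind each FPKM value were worked back from the table. At most 3 fragments in a library were treated as not above the detection floor, which covers counting error only. The 6 photosynthesis genes used as leaf markers summed to between 3.58 and 11.9 FPKM in root libraries and between 14600 and 21827 FPKM in leaf libraries, so the tissue of every library fitted its name. The sample records differ from the library names. They give leaf as the tissue of every library, and hold entries with the opposite N level for high N root, low N leaf and low N root. The names, which are also those of the study, were followed. The markers check the tissue only, so the N level of each library rests on its name.

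One root library stood apart from its group for several N genes. Spo09968 (NRT2.1, a high-affinity nitrate transporter) had 167 to 272 FPKM in low N roots, against 100.6 FPKM in high N root replicate 3 and 1.28 and 0.198 FPKM in the other high N roots. Across 17881 genes on the log2(FPKM + 1) scale the correlation of high N root replicate 3 was 0.965, 0.941 and 0.960 with low N root replicates 1, 2 and 3, and 0.958 and 0.946 with high N root replicates 1 and 2. Between high N root replicates 1 and 2 it was 0.961, within the range seen with replicate 3, so these correlations do not place the library with either N level. Group means and differences of the transporter genes that use it are given with and without it.

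Spo24676 was the most abundant of the ammonium transporter genes in every root library. Its levels were 299, 299.7 and 230.3 FPKM in low N roots (replicates 1, 2 and 3), against 89.6, 53.7 and 216 FPKM in high N roots. Each low N root was above each high N root, although high N root replicate 3 came within 14.6 FPKM of the lowest low N root. These values rest on 1284 to 8265 fragments per library, so counting error is small beside the spread between plants.

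In leaf the same gene was low. It had 9.05, 6.35 and 2.48 FPKM in low N leaves, against 0.956, 2.25 and 0.850 FPKM in high N leaves, from 23 to 220 fragments per library. Again the libraries did not overlap, but low N leaf replicate 3 and high N leaf replicate 2 were close. The order of the group means was low N root, high N root, low N leaf and high N leaf, and no neighbours in that order overlapped.

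Spo24677 was of intermediate abundance in root. It had 59.7, 75.6 and 45.3 FPKM in low N roots, against 4.37, 5.11 and 39.7 FPKM in high N roots, from 108 to 2119 fragments. High N root replicate 3 was again close to the low N roots, while the lowest low N root was 8.87-fold above the higher of the other high N roots.

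Leaf libraries varied widely for Spo24677, with 3.56, 11.6 and 18.2 FPKM in low N leaves against 1.88, 9.44 and 6.36 FPKM in high N leaves. Low N and high N leaves overlapped. The highest leaf library, low N leaf replicate 3, exceeded 2 of the 3 high N roots. Low N root was the only group that stood apart from its neighbour in the order of means, and high N root, low N leaf and high N leaf overlapped with each other in turn.

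Spo16971 was the scarcest of the 3. It had 2.61, 2.86 and 3.67 FPKM in low N roots, against 0.648, 0.440 and 1.21 FPKM in high N roots, from 79, 90 and 101 fragments in the low N roots and 18, 12 and 32 fragments in the high N roots. The low N roots were all above the high N roots. In leaf it had 3, 3 and 0 fragments under low N and 2, 0 and 2 fragments under high N, so every leaf library was at or under the floor of 3 fragments, which for this gene is 0.0970 to 0.109 FPKM. No difference between low N and high N leaves was detectable at this depth.

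**Figure D1:**
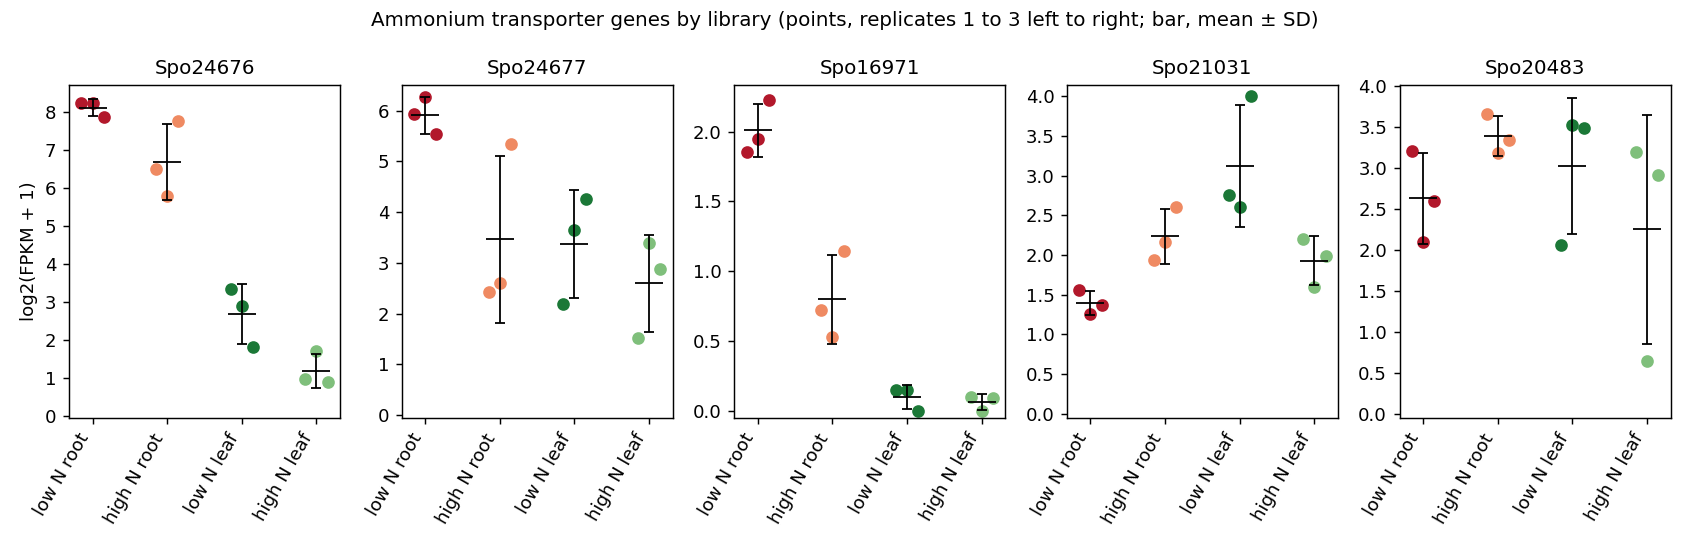
Level of the 5 ammonium transporter genes in each library as log2(FPKM + 1), with a separate vertical axis for each gene and the groups low N root, high N root, low N leaf and high N leaf from left to right. Points are the 3 replicates of a group and bars are mean ± SD. Spo24676 and Spo16971 had every root library above every leaf library, and Spo24677 had high N roots 1 and 2 within the range of the leaves.

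Low N and high N were then set against each other in root, the contrast on which the genes had been picked. The mean of Spo24676 was 276 ± 39.8 FPKM in low N roots and 119.7 ± 85.0 FPKM in high N roots (SD, n = 3 each), a ratio of 2.31, or 3.85 without high N root replicate 3. For Spo24677 the means were 60.2 ± 15.2 and 16.4 ± 20.2 FPKM in low N and high N roots, a ratio of 3.67, or 12.7 without that replicate. The ratio of Spo24677 was the one that depended most on this library. For Spo16971 the means were 3.05 ± 0.554 and 0.766 ± 0.399 FPKM in low N and high N roots, a ratio of 3.98, or 5.60 without that replicate.

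On the log2(FPKM + 1) scale, which understates changes of low genes such as Spo16971, the low N minus high N root differences were 1.43 for Spo24676 (SE 0.47), 2.44 for Spo24677 (SE 0.75) and 1.21 for Spo16971 (SE 0.23). Of 17881 genes tested in root, 9.5% had every low N root above every high N root, as all 3 ammonium transporter genes did, and 0.028% passed an adjusted p of 0.05. Since this pattern was what placed the genes on the list, nothing is read from that count.

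The 2 further ammonium transporter genes had lower means in low N roots than in high N roots. Spo21031 had 1.94, 1.39 and 1.59 FPKM in low N roots, against 2.82, 3.47 and 5.10 FPKM in high N roots. Every low N root was below every high N root, a pattern of 6.14% of genes, and the log2 difference was -0.84 (SE 0.22), or -0.65 without high N root replicate 3. Spo20483 had 8.19, 3.25 and 5.06 FPKM in low N roots, against 11.6, 8.04 and 9.14 FPKM in high N roots, and these overlapped (log2 difference -0.76, SE 0.29, or -0.79 without that replicate). Both genes were listed by the study for their root values as well, so no test is given.

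High N root replicate 3 did not sit at one place between the N levels for all genes. Measured from the mean of the other high N roots towards the low N root mean on the log2(FPKM + 1) scale, it lay 82.5% of the way for Spo24676, 83.5% for Spo24677 and 37.6% for Spo16971. The same measure was 98.7% for glutamine synthetase (Spo01186), 84.8% for NRT2.1 and 92.7% for NLP2 (Spo21931), a regulator of nitrate responses. For Spo23720, an NRG2 match whose N levels differed by only 0.11, it was 104%. It was lower for glutamate dehydrogenase B (80.7%), asparaginase (71.5%), NADH glutamate synthase (56.1%), GAT1 (47.7%) and asparagine synthetase Spo08792 (45.3%). The lowest of the other genes were Spo03990, an NRT2.5 match (36.0%), and Spo20483 (9.41%). For Spo21031 it was -86.5%, which places the library farther from the low N roots than the other high N roots were. What sets this library apart was not tested.

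**Figure D2:**
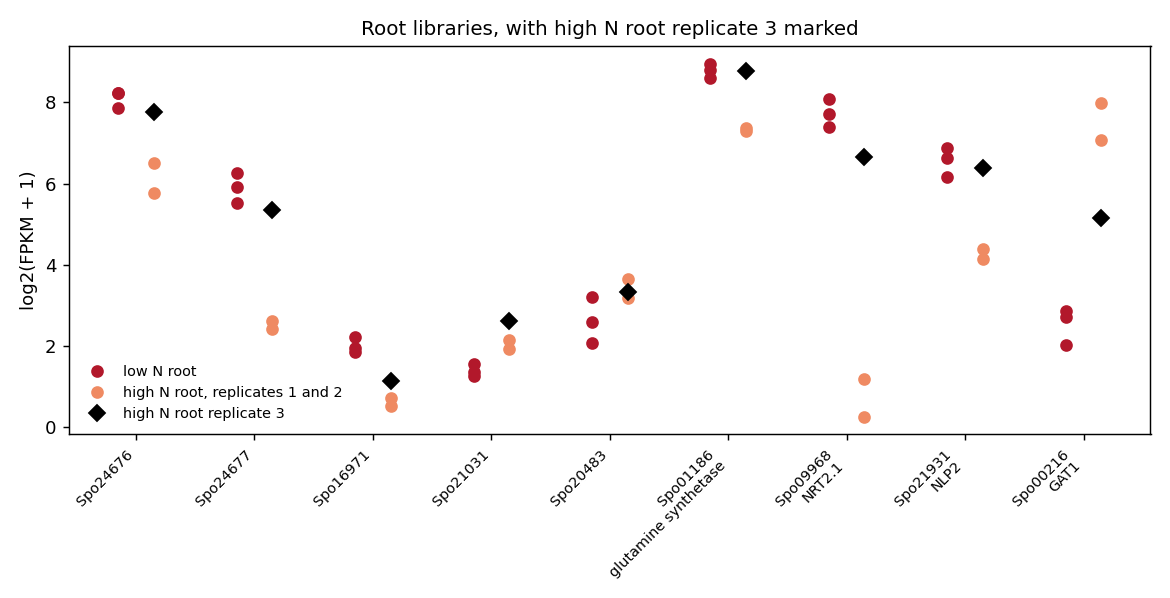
Root levels as log2(FPKM + 1) of the 5 ammonium transporter genes and 4 other N genes, with low N roots on the left and high N roots on the right of each pair and high N root replicate 3 as a black diamond. The diamond lies near the low N roots for Spo24676 and Spo24677, between the N levels for Spo16971, and above all other root libraries for Spo21031.

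Leaf values had no part in the choice of the 3 genes, so low N and high N leaves were tested with limma. Spo24676 also stands in the study's list of N-responsive leaf genes. Its leaf p-values are thus not independent of that list and are not counted as support. The mean of Spo24676 was 5.96 ± 3.30 FPKM in low N leaves and 1.35 ± 0.780 FPKM in high N leaves (SD, n = 3 each), a ratio of 4.41. Its log2 difference was 1.48 (SE 0.43, 95% confidence interval 0.48 to 2.49) and its Benjamini-Hochberg adjusted p was 0.314 from limma over 16522 genes. It passed an unadjusted threshold of 0.05 but not the adjusted one. In an exact two-sided permutation test p was 0.10, the smallest that 3 libraries against 3 can give.

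No leaf gene passed that threshold (0% of 16522 genes, smallest adjusted p = 0.106 by limma), whereas 1070 genes, 6.48%, had an unadjusted p below 0.05 and were higher under low N. Limma's voom on the recovered fragments called 3 genes in leaf, and gave Spo24676 an adjusted p of 0.342. Low N leaves all above high N leaves, as seen for Spo24676, was a pattern of 10.5% of the genes. The leaf result of Spo24676 is thus a difference at the unadjusted threshold only.

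For Spo24677 the means were 11.1 ± 7.35 FPKM in low N leaves and 5.90 ± 3.80 FPKM in high N leaves (SD, n = 3 each). The log2 difference of 0.77 (SE 0.63) had an interval of -0.71 to 2.26, an adjusted p of 0.708 from limma and p = 0.40 in the exact permutation test. Both a rise and a fall lie within that interval. Spo16971 was below the filter on low values in leaf and was not fitted there.

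Spo21031 gave the opposite picture to its own root values. It had 5.77, 5.10 and 15.1 FPKM in low N leaves, against 3.61, 2.01 and 2.95 FPKM in high N leaves, with no overlap and a log2 difference of 1.20 (SE 0.39). No test is given, because the gene was taken from the study's lists, among them that for leaf. Spo20483 had 3.17, 10.4 and 10.2 FPKM in low N leaves, against 8.13, 0.563 and 6.50 FPKM in high N leaves, with an adjusted p of 0.743 from limma. The sum of the leaf markers was 17391 to 21827 FPKM in low N leaves and 14600 to 15620 FPKM in high N leaves. Among these photosynthesis genes, CP24, Spo03025, LHCB3 and PSBS had low N minus high N log2 differences of 1.01, 0.998, 0.85 and 0.75. Those of PSAL and PSAG were 0.05 and 0.06, and the median leaf gene had 0.04. The marker list comes from genes the study chose on these libraries, so the sum is no measure of a general leaf shift. Whether a general shift has a part in the leaf values was not tested.

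**Figure D3:**
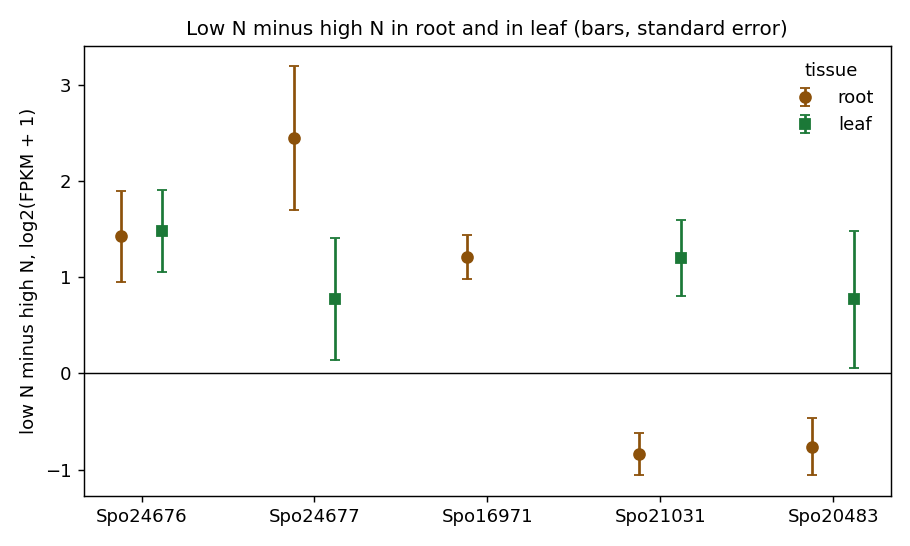
Low N minus high N on the log2(FPKM + 1) scale for the 5 ammonium transporter genes, in root (circles) and in leaf (squares), with standard errors. In root Spo24676, Spo24677 and Spo16971 are above 0 and Spo21031 and Spo20483 below it, while in leaf all 4 genes that could be fitted are above 0. Spo16971 has no leaf point because it was below the filter.

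Root and leaf were compared over both N levels, a contrast other than the one used to pick the genes. The root libraries are nevertheless the same, and a gene had to be expressed in root to be picked, with no such need in leaf. A higher level in root was thus favoured by the choice, and the tissue p-values of the picked genes are not counted as support. In bulk tissue, fewer cells of a type that carries a transcript and less transcript per cell cannot be told apart. The median gene was higher in root by 0.54 on the log2 scale, and by 0.05 after median-of-ratios scaling, so differences are to be read against that shift.

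Spo24676 was higher in root by 5.46 on the log2 scale (SE 0.34, adjusted p = 3.50e-08 by limma over 18411 genes), or 5.19 without high N root replicate 3. Every root library, down to 53.7 FPKM, exceeded every leaf library, up to 9.05 FPKM. In the exact permutation of tissue within each N level p was 0.005, the smallest of its 400 arrangements. The choice of genes favoured root, so these p-values describe the gap between the libraries and are not independent support. Within low N the ratio of means was 46.4 in root over leaf, and within high N it was 88.5, or 53.0 without high N root replicate 3. These within-N ratios hold the root groups used for the choice of genes and are given as values.

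Spo24677 was higher in root by 1.70 (SE 0.54, adjusted p = 0.0133 by limma, p = 0.03 in the exact permutation test). After median-of-ratios scaling the difference was 1.20 with an adjusted p of 0.0837, and after quantile normalization 1.19 with 0.0816, so the call depended on how tissues were scaled. Within low N the mean was 60.2 FPKM in root and 11.1 FPKM in leaf, a ratio of 5.40. Within high N it was 16.4 FPKM in root and 5.90 FPKM in leaf, but without high N root replicate 3 the root mean was 4.74 FPKM, below the leaf mean. Over both N levels the difference without that library was 1.23 with an adjusted p of 0.0187 by limma.

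Spo16971 had a mean of 1.91 FPKM over the 6 root libraries. Set against a leaf floor of 3 fragments per library, on average 0.103 FPKM, it was at least 18.5-fold higher in root, or 19.9-fold without high N root replicate 3. Its mean over all 12 libraries was below the filter, so limma with the filter gave no value. The difference of 1.32 in log2(FPKM + 1) had p = 0.005 in the exact permutation test, again the smallest possible. The choice of genes favoured root, and every leaf library was at or under the floor, so this p is not counted as support. Without high N root replicate 3 the difference was 1.23.

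Of the 3 genes, 2 passed the filter and both were thus called higher in root, beside 57.9% of all genes tested with FPKM as deposited. Since the choice of genes favoured root, nothing is read from these calls. After median-of-ratios scaling 33.8% of genes were called higher and 29.2% lower in root. Spo24676 and Spo16971 had root and leaf libraries that did not overlap, as had 40.8% of the genes tested, among which Spo16971 was not. Spo21031 was lower in root by limma, with a log2 difference of -0.71 (SE 0.24, adjusted p = 0.0175), a call shared with 18.3% of genes. In the exact permutation test on FPKM as deposited its p was 0.085. After median-of-ratios scaling its difference was -1.12 (adjusted p = 0.00070 by limma), and after quantile normalization -1.29 (adjusted p = 0.00023 by limma). These calls were shared with 29.2% and 29.8% of genes. Its means were 1.64 FPKM in root and 8.64 FPKM in leaf within low N, whereas within high N they were 3.80 FPKM in root and 2.86 FPKM in leaf and overlapped. Without high N root replicate 3 the differences over both N levels were -0.80 for Spo21031 and 0.39 for Spo20483. For Spo20483 the difference with all libraries was 0.38 (SE 0.43, adjusted p = 0.437 by limma) and changed sign to -0.07 after median-of-ratios scaling.

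The share of each transporter in the summed level was described per library, without a test. Spo24676 made up 75.9 to 82.2% of the summed FPKM of the 5 ammonium transporter genes in all 6 roots, and 5.08 to 41.8% in the leaves. The sum itself was 347 ± 52.9 FPKM in low N roots, 150.2 ± 106 FPKM in high N roots, 33.7 ± 12.1 FPKM in low N leaves and 15.2 ± 1.32 FPKM in high N leaves (SD, n = 3 each). The single high N roots had 109, 70.8 and 271 FPKM, and without replicate 3 their mean was 89.9 FPKM. Spo21031 and Spo20483 together contributed 1.21 to 16.2% of it in root and 18.1 to 80.1% in leaf.

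Spo24676 and Spo24677 stood in one order in all roots and in the opposite order in most leaves. The ratio of Spo24676 to Spo24677 was 5.0, 3.96 and 5.09 in low N roots and 20.5, 10.5 and 5.43 in high N roots. In leaf it was 2.54, 0.547 and 0.136 under low N and 0.508, 0.238 and 0.134 under high N. All 6 roots had more Spo24676, and 5 of the 6 leaves had more Spo24677, low N leaf replicate 1 being the exception. The ratio was lower in each low N root than in each high N root, by a narrow margin for high N root replicate 3. The 2 genes share their best match, and fragments that fit both could have been divided or dropped in counting, so their exact levels are less certain than the fragment numbers imply.

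**Figure D4:**
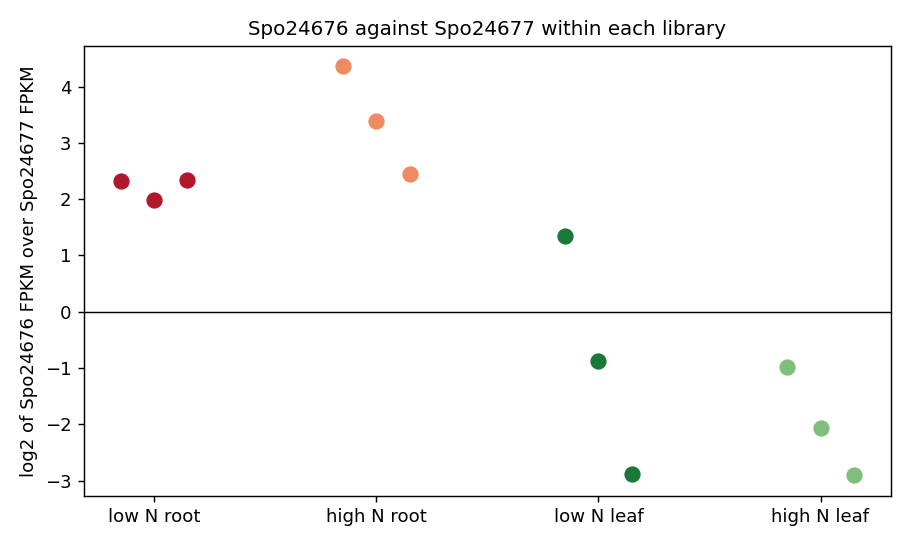
Log2 of the FPKM of Spo24676 over that of Spo24677 in each library, with the groups low N root, high N root, low N leaf and high N leaf from left to right and replicates 1 to 3 as points. All root points are above 0 and 5 of 6 leaf points are below it, with low N leaf replicate 1 as the exception at 1.35.

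Over the 12 libraries the log2(FPKM + 1) values of Spo24676 and Spo16971 had a Pearson correlation of 0.90, those of Spo24677 and Spo16971 of 0.80, and those of Spo24676 and Spo24677 of 0.70. These values contain the tissue difference and the root N difference. With group means removed they were 0.60, 0.38 and 0.36 for the same pairs. They describe 12 libraries in 4 groups and carry no test.

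Of the genes that averaged 1 FPKM or more, those most like Spo24676 over the 12 libraries were Spo01233, Spo06253, Spo19032, Spo06052 and Spo16493, with r of 0.992, 0.991, 0.989, 0.986 and 0.986. Of these, Spo06253 has a match to the cytochrome P450 710A11 and Spo19032 to the ACC oxidase homolog 5, and the others had no name in the sources used. Spo06253, the most abundant, had means of 89.3 FPKM in low N roots, 51.3 FPKM in high N roots, 3.46 FPKM in low N leaves and 1.62 FPKM in high N leaves.

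The pattern of Spo24677 was less closely matched, with r of 0.933 for Spo16864, 0.930 for Spo06088, 0.920 for Spo07944, and 0.918 for both Spo23405 and Spo12487. Spo06088 has a match to glutaredoxin-C6 and Spo23405 to the NRT1/PTR family protein 7.3. Spo23405 had means of 67.1 FPKM in low N roots, 21.8 FPKM in high N roots, 15.5 FPKM in low N leaves and 3.15 FPKM in high N leaves.

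Spo16971 was most like Spo04492 (ankyrin repeat protein BDA1 match, r = 0.990), Spo03090 (MLP-like protein 43 match, 0.985), Spo11782 (cation transporter HKT6 match, 0.983), Spo16897 (NRT1/PTR family 6.2 match, 0.979) and Spo12076 (cytochrome P450 71A6 match, 0.977). All 5 were nearly absent from leaf, with group means of at most 0.253 FPKM there. Spo11782, the most abundant of them, averaged 31.4 FPKM in low N roots and 3.65 FPKM in high N roots.

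With group means removed, so that only the variation between libraries of a group remains, counting error included, the closest genes were others. For Spo24676 the 5 closest were Spo02225 (MLO-like protein 1 match, r = 0.980), Spo03129, Spo17392, Spo07022 and Spo14368, down to r = 0.913. For Spo24677 they were Spo21996 (r = 0.961), Spo00157 (phosphomethylpyrimidine synthase match), Spo14163, Spo08629 and Spo15798, down to 0.886. For Spo16971 they were Spo27016 (r = 0.957), Spo13454 (match to a pEARLI1-like lipid transfer protein), Spo30029 (match to the transcription factor ORG2), Spo04634 and Spo14029, down to 0.919. No gene was among the 5 for more than 1 of the transporters. Spo16971 had at most 3 fragments in each leaf library, so its leaf deviations are in large part counting error. Each r is the highest of a large number of genes over 12 libraries, so values of this size can arise by chance, and no test is given.

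Genes of ammonium assimilation were set beside the transporters. Glutamine synthetase Spo01186, which incorporates ammonium into glutamine, had 496, 445 and 387 FPKM in low N roots, against 157, 164 and 435 FPKM in high N roots. High N root replicate 3 was within the range of the low N roots, whereas for Spo24676 it was just below them. In leaf it had 34.9, 33.3 and 35.6 FPKM under low N, against 14.5, 6.82 and 11.4 FPKM under high N, with no overlap, and the study had listed it for that contrast. Its root difference of 0.97 on the log2 scale (SE 0.40) had an adjusted p of 0.436 from limma, and it was 1.45 without high N root replicate 3.

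Of the 7 assimilation genes, 6 passed the filter in each comparison and 0 were called between low N and high N at the adjusted threshold by limma or voom, in root or in leaf. At an unadjusted p below 0.05 by limma, 1 was higher and 5 were lower under low N in root, beside 6.52% and 4.63% of all genes. In leaf 1 was higher and 3 were lower, beside 6.48% and 4.72%. The study had picked the genes at that level, for root, for leaf or for both, so nothing is read from these counts. Between tissues 5 were called higher in root, as were 57.9% of all genes, whose median shift was 0.54. These were glutamine synthetase by 3.96, asparaginase (Spo26408) by 3.58, GAT1 (Spo00216, a putative glutamine amidotransferase) by 2.78, glutamate dehydrogenase B (Spo13173) by 1.76 and NADH glutamate synthase (Spo02549) by 1.65. The sixth, asparagine synthetase Spo08792, which makes the transport amide asparagine, had a difference of -3.72 and was called lower in root. In the low N minus high N contrast in root, glutamine synthetase was above 0, as the 3 transporters were, and the other 5 were between -4.20 and -0.76, or between -4.99 and -0.93 without high N root replicate 3. The study had picked these genes on N contrasts in the same libraries, so their N values add no independent evidence.

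Of 6 genes of nitrate uptake and its regulation, 4 passed the filter over all libraries. NRT2.1, NLP2 and Spo03990 (an NRT2.5 match) passed it only through their root values, so a higher level in root was set by the filter and is not counted. NRT2.1 was at 0 FPKM in 5 of the 6 leaf libraries and NLP2 reached at most 1.35 FPKM in leaf. In high N roots 1 and 2 NRT2.1 was at or below 1.28 FPKM, whereas Spo24676 still had 89.6 and 53.7 FPKM there.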

How the data were processed

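RNA-seq libraries were made from leaf and root of low N and high N spinach with the NEBNext Ultra kit, and use of strand in counting is not given in the sources used here. According to the study's methods, read pairs were aligned to the SpinachBase genome with TopHat and Bowtie and counted with HTSeq, and the authors deposited FPKM for 25495 genes with no further scaling between libraries. The submitters' processing notes name fastp, HISAT2 2.1.0, featureCounts and DESeq2 instead, so the counting of fragments shared by related genes is uncertain. The genome build is not given in the sources used here, and 0 other per-sample columns were present.

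FPKM values were whole multiples of 1 fragment, from which lengths and fragments were worked back for 23015 genes (relative tolerance 1e-05), and 2480 genes were 0 in every library. Genes that averaged 1 FPKM or more in the libraries of a comparison were fitted as log2(FPKM + 1) by limma 3.58.1 (R 4.3.3). Its moderated variances followed a trend with expression, and p-values were adjusted after Benjamini and Hochberg. Leaf libraries (low N against high N) and all 12 libraries (root against leaf over both N levels) were tested, and root low N against high N was described. The fits were tested on simulated data. The simulation gave every gene the same relative spread and held no deviating library, so it does not cover genes as variable as Spo24677 in high N roots. Exact permutation tests, two-sided, used Python 3.11.15, pandas 2.3.3 and NumPy 2.4.6, over 5 genes for tissue and 4 for leaf. Figures were drawn with matplotlib 3.10.9.

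Genes named are the 3 transporters, the other ammonium transporter matches in the study's tables, fixed lists of assimilation, nitrate and leaf marker genes, and for each transporter the 5 genes with the highest Pearson r. The transporters and lists were chosen with earlier results of these data known, and the lists come from genes the study chose on these libraries. Alternatives were a pseudocount of 0.1, a filter of 5 FPKM in place of 1 or no filter, other scalings (quantile normalization, median-of-ratios), variances without the trend, voom on recovered fragments, a replicate block, all 4 groups in one fit, and each library left out. Gene sequences and positions were not used here because 0 identifiers matched the reference annotation.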

Additional observations from a re-analysis of the deposited data

Results flagged for a closer look

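Spo21031, the ammonium transporter gene with a tomato AMT1-3 match, moved in opposite directions in the tissues. Every low N root was below every high N root, as in 6.14% of genes, and every low N leaf was above every high N leaf, as in 10.5%. Opposite patterns in the tissues were searched for among the named genes only. Their share among all genes was not worked out, so how unusual the pattern is cannot be said. The low N minus high N difference in root minus that in leaf was -2.04 on the log2(FPKM + 1) scale. The study had listed the gene for both tissues, and the difference was not tested. Groups of 3 libraries were too small for the search for single outlying libraries.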

How the results depend on the processing

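The root against leaf difference of Spo24677 was 1.20 with median-of-ratios scaling (adjusted p = 0.0837 by limma) and 1.19 with quantile normalization (adjusted p = 0.0816), and past the threshold under the other 6 settings and with each library left out (1.23 to 1.96). That of Spo24676 stayed called, between 4.98 and 6.03, and 5.19 to 5.69 with a library left out. That of Spo16971 was above 0 in the settings run, where p = 0.005 in the exact permutation test is the smallest it can give and shows no stability, at 1.23 to 1.39 with a library left out, 3.39 with a pseudocount of 0.1, 1.14 with median-of-ratios scaling and 0.99 with quantile normalization. With no filter on low values the root against leaf difference of Spo16971 was 1.32 by limma (SE 0.11). The remaining settings keep the filter, which Spo16971 did not pass, and were not run for it. In leaf it was at or under the floor in every library, so no difference is given. In leaf, Spo24676 was 1.15 to 1.92 and Spo24677 0.24 to 1.36 with a library left out, and neither was called under any setting run, while Spo24676 could not be fitted with a mean FPKM of at least 5. Leaf genes called at the adjusted threshold numbered 2 with no filter, 3 with voom, 34 with all 4 groups in one fit and 0 to 41 with a library left out, the highest without low N leaf replicate 1, and the cause was not tested. Leaf genes at unadjusted p below 0.05 were 1310 to 1975 with a library left out, and tissue calls 13422 to 14082. The root difference of Spo16971 was 1.95 with a pseudocount of 0.1 and 2.07 with voom, both of which add less to low values than 1 FPKM, and 1.08 to 1.38 with a library left out. With a library left out the root differences were 0.97 to 1.97 for Spo24676 and 1.93 to 3.39 for Spo24677. Libraries share replicate numbers, but whether root and leaf of a number came from the same plant is not given in the sources used here. Correlations of deviations of same-numbered libraries were -0.02 to 0.10 between low N and high N roots and -0.01 to 0.27 between low N and high N leaves. They were 0.10 to 0.30 between low N roots and leaves, and 0.09 to 0.37 between high N roots and leaves. Each low N root was most like the low N leaf of its own number. The same held for high N roots 2 and 3 with the high N leaves, but not for 1. The numbers were not used as pairing in the main tests, and pairing of tissues within an N level was not tested. With the replicate block Spo24676 had 1.48 in leaf (adjusted p = 0.247 by limma) and 5.46 between tissues, and no call changed. The block joins libraries of a number across N levels, so it does not stand for single plants.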
